A study of Mus musculus with 6 samples.

Results

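Homologous recombination, the Fanconi pathway and mismatch repair were followed through 35 genes in bone marrow RNA of Gab2 wild-type and Gab2-null mice. The genes were chosen by symbol, as a list of factors that sense double-strand breaks, resect and recombine DNA ends, repair crosslinks or correct replication mismatches. All 35 symbols were found among the 23359 distinct symbols of the table. All 35 also passed the expression filter, an average of 1 FPKM or more across the 6 libraries, as did 9916 genes in total. FPKM are fragment numbers corrected for transcript length and for the fragments mapped in a library, so levels can be compared between genes. The wild type, Gab2 +/+ (WT), and the null, Gab2 -/- (NULL), had 3 libraries each, lettered A to C, all from polyadenylated RNA of bone marrow. GAB2 is a docking adaptor that couples cytokine receptors and the BCR-ABL1 kinase to downstream enzymes, and the series concerns its part in transformation by BCR-ABL1. The labels of the samples name neither strain, sex, age, treatment, culture nor the number of animals, and they do not say whether cells carried BCR-ABL1. The p-values therefore measure the spread between these libraries, which may be technical.

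Double-strand breaks are recognised by the MRE11-RAD50-NBS1 complex and the kinases ATM and ATR, which activate the checkpoint kinases CHK2 and CHK1. Resection of the ends exposes single-stranded DNA, on which BRCA1, PALB2 and BRCA2 place the recombinase, and paralogs of the recombinase and RAD54 proteins assist strand exchange. The Fanconi core complex attaches ubiquitin to FANCD2 and FANCI at crosslinked DNA and hands the lesion to the same recombination factors. Mismatch repair uses dimers that contain MSH6 or MSH3 to find mispaired bases, and PMS2 nicks the new strand. Much of this machinery is known to be transcribed together with DNA replication genes in dividing cells, among them marrow precursors and the early B cells that rearrange and expand there.

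FPKM carry no depth of their own, but the steps between low FPKM put library depth at about 17.4 M fragments in WT B, the shallowest, and 67.4 M in NULL A, the deepest. At these depths the thinnest value of any of the 35 genes, Fance in 1 library, rested on about 103 fragments, a counting error of roughly 9.85%. Gab2 itself read 3.33, 3.10 and 2.43 FPKM in WT and 0.123, 0.145 and 0.203 FPKM in NULL, so the labels and the targeted gene matched in all 6 libraries (limma log2 difference -1.77, adjusted p = 1.83e-05; two-sided exact permutation p = 0.1, the smallest that 3 against 3 allow). B-lineage markers dominated, with a summed level of 3510 to 3820 FPKM in WT and 4910 to 5060 FPKM in NULL, and 9 of 12 were called higher and 1 lower in NULL. Markers that define most of a whole marrow were close to 0. The 8 granulocyte markers, 3 of them at 0 in every library, summed to between 0 and 0.186 FPKM, and the 7 erythroid ones to between 0.161 and 0.303 FPKM. The 6 T and NK cell ones summed to between 0.0955 and 0.255 FPKM in WT and between 0.37 and 0.466 FPKM in NULL. Monocyte markers (5 in the table) summed to between 0.826 and 0.956 FPKM in WT and between 2.62 and 3.83 FPKM in NULL, and megakaryocyte markers (5) to at most 0.138 FPKM in WT and at most 0.734 FPKM in NULL. Within the monocyte sum the mean of Lyz2 went from 0.413 to 2.85 FPKM and that of Mrc1 from 0.434 to 0.163 FPKM. Means went from 0.0278 to 0.0937 FPKM for Csf1r and from 0 to 0.0267 FPKM for Ms4a7, and Cd14 was 0 throughout. The part of these shifts in the differences below was not tested. In bulk RNA, fewer cells of a type and less RNA per cell cannot be told apart.

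Most of the repair genes were lower in the Gab2-null libraries. The test was limma on log2(FPKM + 1), which understates changes of weakly expressed genes, with Benjamini-Hochberg adjustment over all 9916 genes and a threshold of 0.05. Of the 35 genes 27 fell, 1 rose and 7 did not pass the test. Across all tested genes 42.0% were called lower and 23.3% higher, so a fall by itself is common here, and the share among the repair genes was 77.1%. Their median log2 difference was -0.77, against -0.13 for all tested genes. A fall of at least 1 on the log2 scale was called for 7 of the 35 genes, Chek1, Blm, Exo1, Nbn, Fancd2, Rad54l and Fancb, and for 5.99% of all tested genes. All NULL libraries lay below all WT libraries for 28 of the 35 genes (45.1% of all tested genes), all NULL libraries lay above for 2, and the groups overlapped for 5. Shares of all tested genes are not at hand for the last 2 counts, so they cannot be read against the background. The median of the repair genes went from 11.5 FPKM in WT to 5.87 FPKM in NULL.

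**Figure D1:**
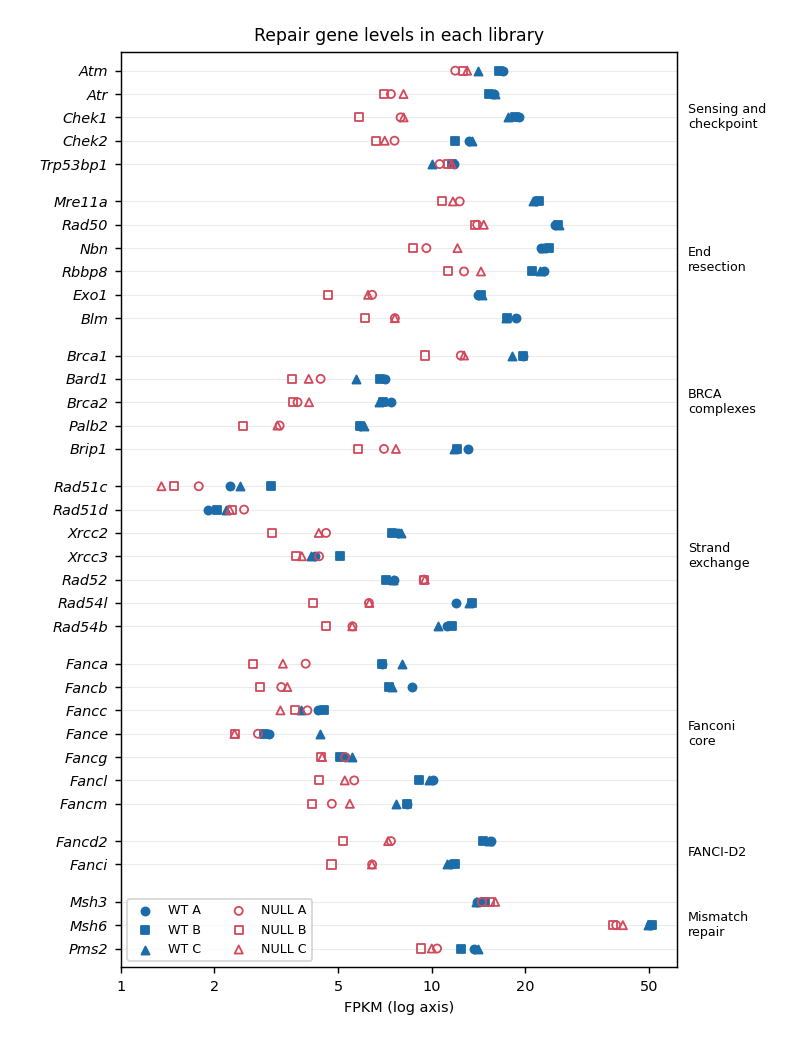
FPKM of the 35 repair genes (log axis) in the 3 WT (filled) and 3 NULL (open) libraries, with A, B and C as circle, square and triangle, grouped by role. In 28 rows every NULL point lies left of every WT point; Rad52 and Rad51d show the opposite order, and NULL B is the lowest NULL library in 27 rows.

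Rescaling the libraries changed how many of these calls held. The 4 rescalings were median-of-ratios, quantile, division by each library's summed FPKM (total scaling), and total scaling with small RNA genes left out of the sum (trimmed total scaling). With median-of-ratios 26 of the 35 genes were called lower (32.7% of all tested genes), with quantile 26 (33.1%), with total scaling 14 (10.1%) and with trimmed total scaling 22 (20.6%). Called higher, in the same order, were 3 of the 35 (31.7% of all tested genes), 2 (28.5%), 0 (20.4%) and 4 (45.1%). The median of the repair genes was -0.63, -0.66, -0.52 and -0.43 under these scalings, where that of all genes was 0.0098, -0.030, 0.12 and 0.20. The share of summed FPKM in small RNA genes ran from 6.01% in WT A to 31.4% in WT C, which enters total scaling. The 14 genes called lower on the deposited scale and under all 4 rescalings were Atr, Chek1, Nbn, Exo1, Blm, Palb2, Xrcc2, Rad54l, Rad54b, Fanca, Fancb, Fancl, Fancd2 and Fanci. A further 11 genes called lower on the deposited scale kept a negative difference in all 4, and the other two, Atm and Msh6, changed sign in at least 1.

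**Figure D2:**
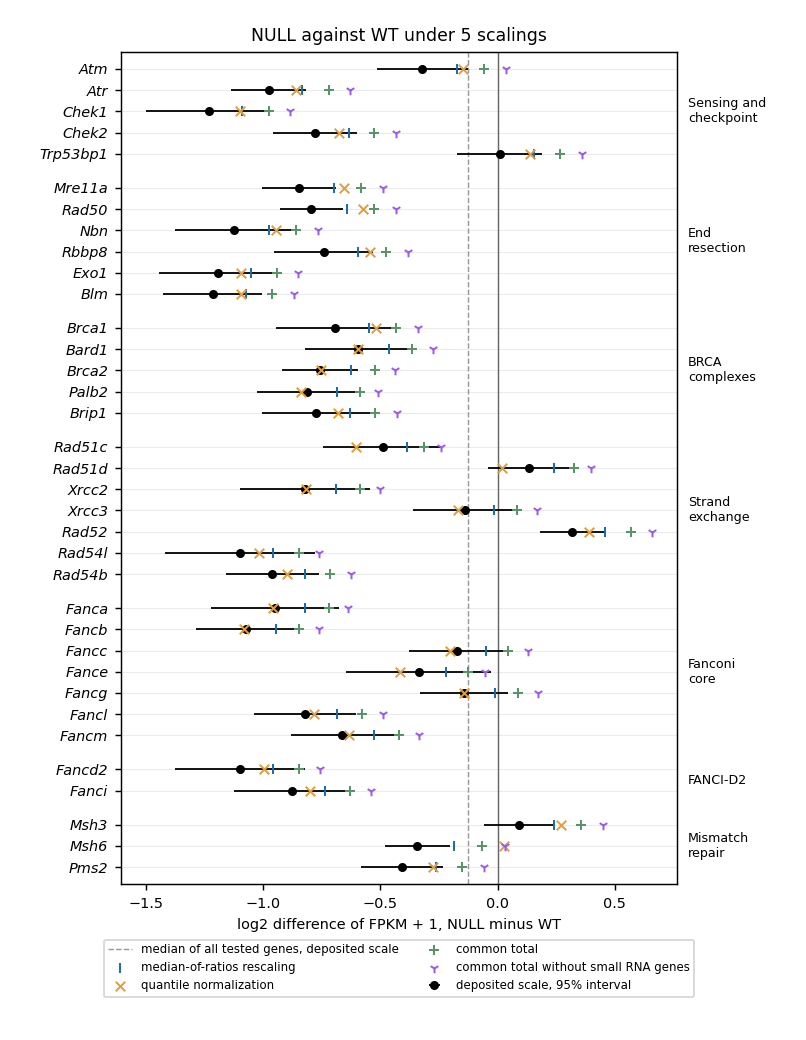
Log2 difference of FPKM + 1, NULL minus WT, for each of the 35 genes on the deposited scale (black, 95% limma interval) and under 4 rescalings (coloured marks); the dashed line is the median of all tested genes, -0.13. Chek1, at -1.23 on the deposited scale and -0.885 with trimmed total scaling (drawn as common total without small RNA genes), is the leftmost gene, and Rad52 is the rightmost.

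NULL B stood apart from NULL A and C for these genes. It was the lowest NULL library for 27 of the 35 genes, for 38 of 38 replication genes and 30 of 30 mitosis genes, against 47.5% of all tested genes. Without NULL B 27 repair genes were still called lower and the median was -0.68. The median coefficient of variation of the repair genes was 4.61% among WT and 10.8% among NULL libraries.

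Because the genes moved together, their promoters were examined for short words known from cell-cycle promoters. RefSeq promoters on GRCm38.p6, 250 bases before to 50 after the transcription start, were found for 27 of the 35 genes. They were searched on both strands for the E2F words TTCCCGC and TTGGCGC, the CCAAT box (CCAAT, bound by NF-Y) and the CHR word TTTGAA. None of these words contains another, but TTGGCGC can share bases with a CCAAT box on the opposite strand. An E2F word stood in 14 of 27 (51.9%), against 6.81% of all 32851 promoters in the table and 13.5% of 7408 promoters of tested genes. Among genes called lower it stood in 11 of 20 and among the others in 3 of 7. Replication genes held one in 16 of 30 (53.3%) and mitosis genes in 3 of 25. Other genes of the same pathways held one in 15 of 42 (35.7%), end joining genes in 2 of 7 and excision repair genes in 4 of 21. The CCAAT box stood in 16 of 27 (59.3%), against 40.5% of tested genes' promoters. Its share was similar or higher in the other lists, so it was not particular to the repair genes. It was 60% for replication, 76% for mitosis, 61.9% for excision repair, and 57.1% for both end joining and other genes of the same pathways. The CHR word stood in 1 of 27, in Bard1, and in 17 of 25 promoters of mitosis genes (12.0% of tested genes' promoters). Such a match describes letters in a window and is not a bound site.

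Promoters are shown for the 4 genes of largest called fall that had one, for Rad52, the gene that rose, and for Trp53bp1, whose level differed least. Each is the 250 bases before the start, 5′ to 3′ on the gene's strand, with E2F words and CCAAT boxes in capitals, coordinates on GRCm38.p6.
Chek1, chr9:36726659-36726908, minus strand: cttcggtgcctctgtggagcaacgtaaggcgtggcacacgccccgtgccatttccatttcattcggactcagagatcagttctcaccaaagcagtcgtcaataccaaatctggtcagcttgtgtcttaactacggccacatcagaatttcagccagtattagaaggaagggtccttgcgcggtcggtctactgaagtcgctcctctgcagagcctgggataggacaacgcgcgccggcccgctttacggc
Blm, chr7:80534999-80535248, minus strand: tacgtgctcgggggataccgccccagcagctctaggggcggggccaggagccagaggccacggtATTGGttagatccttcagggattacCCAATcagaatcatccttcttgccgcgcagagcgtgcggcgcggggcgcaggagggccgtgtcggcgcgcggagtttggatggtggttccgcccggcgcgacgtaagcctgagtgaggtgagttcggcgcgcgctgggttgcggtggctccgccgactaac
Rad54l, chr4:116123691-116123940, minus strand: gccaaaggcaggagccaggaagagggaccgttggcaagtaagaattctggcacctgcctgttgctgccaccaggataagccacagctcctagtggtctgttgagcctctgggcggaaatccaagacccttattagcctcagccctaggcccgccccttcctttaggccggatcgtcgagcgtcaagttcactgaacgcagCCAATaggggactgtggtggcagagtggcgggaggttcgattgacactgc
Fancb, chrX:164980342-164980591, plus strand: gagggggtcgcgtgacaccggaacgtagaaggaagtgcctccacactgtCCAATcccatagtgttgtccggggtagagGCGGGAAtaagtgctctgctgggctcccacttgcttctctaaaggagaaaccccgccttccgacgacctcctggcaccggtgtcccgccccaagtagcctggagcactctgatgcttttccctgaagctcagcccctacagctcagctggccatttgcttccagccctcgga
Rad52, chr6:119902448-119902697, plus strand: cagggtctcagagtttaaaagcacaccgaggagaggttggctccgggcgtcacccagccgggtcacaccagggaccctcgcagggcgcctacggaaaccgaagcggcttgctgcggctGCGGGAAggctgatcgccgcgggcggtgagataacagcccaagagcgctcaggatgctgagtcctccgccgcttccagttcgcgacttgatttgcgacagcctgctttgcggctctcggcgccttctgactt
Trp53bp1, chr2:121271408-121271657, minus strand: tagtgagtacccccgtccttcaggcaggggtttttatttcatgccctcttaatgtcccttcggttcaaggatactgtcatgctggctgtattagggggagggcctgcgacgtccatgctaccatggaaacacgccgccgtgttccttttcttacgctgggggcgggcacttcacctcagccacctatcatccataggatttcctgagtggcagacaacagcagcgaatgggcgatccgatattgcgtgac
Blm holds 2 CCAAT boxes, which begin at -186 and -161 from the start, and Rad54l holds 1 at -50. Fancb carries a CCAAT box at -201 and an E2F word at -172. Chek1 shows none in these bases and has an E2F word at 43, after the start. Rad52 also holds an E2F word, at -132, so the word occurs on both sides of the calls. Trp53bp1 holds none of the words searched. The GENCODE vM21 annotation of Chek1 extends to base 36727065, so its 250 bases lie inside the annotated gene. That of Blm extends to base 80535119, inside the bases shown. The words found therefore depend on the start used.

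**Figure D3:**
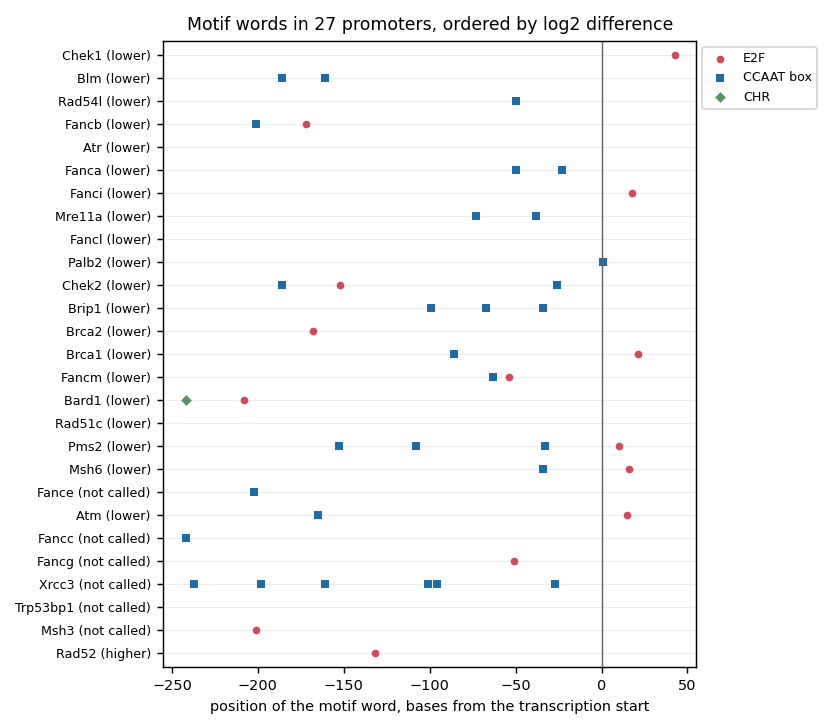
Positions of E2F, CCAAT and CHR words, in bases from the transcription start, in the 27 promoters found, ordered from the largest fall (top) to the gene that rose (bottom). E2F words stand in 14 rows, among them those of Msh3 and Rad52, and the CHR word in 1.

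Among the sensing and checkpoint genes 4 of 5 fell. Counts by role are on the deposited scale, where 42.0% of all tested genes were called lower and 23.3% higher. Chek1 encodes the kinase CHK1, which halts the cycle when forks stall, and lies on chromosome 9. It read 19.1, 18.5 and 17.6 FPKM in WT, always in the order A, B, C, and 7.94, 5.84 and 8.12 FPKM in NULL. Every NULL library was far below every WT library, and NULL B was the lowest. The mean fell from 18.4 ± 0.769 to 7.30 ± 1.27 FPKM (SD, n = 3 each), a limma log2 difference of -1.23 (SE 0.114, adjusted p = 7.67e-05), the largest of the 35.

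Atr, the kinase that answers single-stranded DNA, read 15.9, 15.3 and 16.0 FPKM in WT and 7.39, 7.04 and 8.11 FPKM in NULL. The groups were well apart and each was tight, and NULL held 47.7% of the WT mean (limma log2 difference -0.98, SE 0.068, adjusted p = 2.99e-05). Chek2, the kinase activated by ATM, read 13.2, 11.9 and 13.5 FPKM in WT and 7.59, 6.63 and 7.06 FPKM in NULL (limma log2 difference -0.78, adjusted p = 9.35e-05). Its call was lost with total scaling (limma adjusted p = 0.0839).

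Atm, the kinase that answers double-strand breaks, had a smaller difference. It read 17.0, 16.5 and 14.1 FPKM in WT and 11.9, 12.6 and 13.0 FPKM in NULL, so that WT C came close to NULL C. The limma log2 difference was -0.32 (adjusted p = 0.0102), and the call was lost under all 4 rescalings, with 0.035 under trimmed total scaling (adjusted p between 0.122 and 0.881). Trp53bp1 encodes 53BP1, which protects ends from resection and favours end joining. It read 11.8, 11.6 and 10.0 FPKM in WT and 10.6, 11.3 and 11.6 FPKM in NULL, with full overlap, and its log2 difference of 0.0089 had a 95% interval from -0.17 to 0.19 (limma adjusted p = 0.928). It was called higher with trimmed total scaling, at 0.36 (adjusted p = 0.0217). About 22.1% of its annotated exonic bases lie opposite exons of Tubgcp4. The kit marks strand, per the labels, but no source used here gives the strand setting of the counting.

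The end resection genes all fell, 6 of 6. Blm, the helicase that unwinds ends and dissolves recombination intermediates, read 18.7, 17.4 and 17.3 FPKM in WT and 7.61, 6.12 and 7.61 FPKM in NULL. NULL held 40.0% of the WT mean (limma log2 difference -1.22, SE 0.0902, adjusted p = 3.54e-05). Exo1, the exonuclease that extends resection and also serves mismatch repair, read 14.1, 14.4 and 14.5 FPKM in WT and 6.43, 4.63 and 6.24 FPKM in NULL. The WT libraries were almost level while NULL B lay below its partners (limma log2 difference -1.19, SE 0.109, adjusted p = 7.22e-05).

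Nbn, Rad50 and Mre11a encode the 3 subunits of the break-sensing MRN complex, and all 3 fell. Nbn read 22.5, 23.9 and 22.8 FPKM in WT and 9.61, 8.71 and 12.1 FPKM in NULL (limma log2 difference -1.12, adjusted p = 8.96e-05). Rad50 fell from 25.3 ± 0.364 to 14.2 ± 0.466 FPKM and Mre11a from 21.6 ± 0.593 to 11.6 ± 0.746 FPKM (SD, n = 3). The groups did not overlap for any of the 3 genes. Rbbp8, which encodes the resection starter CtIP, fell from 22.1 ± 0.957 to 12.8 ± 1.56 FPKM (limma adjusted p = 0.000256). Calls for Mre11a, Rad50 and Rbbp8 were lost with total scaling, with limma adjusted p = 0.0681, 0.110 and 0.149.

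The genes of the BRCA complexes fell in 5 of 5 cases, within a narrow range of -0.81 to -0.59. Palb2, the bridge between BRCA1 and BRCA2, read 5.87, 5.88 and 6.07 FPKM in WT and 3.24, 2.47 and 3.19 FPKM in NULL (limma log2 difference -0.81, adjusted p = 0.000168). Brip1, a helicase bound to BRCA1, read 13.1, 12.1 and 11.8 FPKM in WT and 7.02, 5.78 and 7.67 FPKM in NULL (limma log2 difference -0.77, adjusted p = 0.000321). Brca2, the recombinase loader, read 7.42, 6.98 and 6.78 FPKM in WT and 3.70, 3.59 and 4.03 FPKM in NULL (limma log2 difference -0.76, adjusted p = 7.55e-05). NULL values of all 3 genes sat well below WT, and NULL B was the lowest for each.

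Brca1 and its partner Bard1, which form a ubiquitin ligase, moved in parallel. Brca1 fell from 19.1 ± 0.874 to 11.5 ± 1.76 FPKM and Bard1 from 6.53 ± 0.707 to 3.98 ± 0.430 FPKM (SD, n = 3; limma adjusted p = 0.000843 and 0.00115). Of these 5 genes only Palb2 kept its call with total scaling, where the limma adjusted p of the others lay between 0.0529 and 0.198. Bard1 also lost it with trimmed total scaling (adjusted p = 0.0585).

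The strand exchange genes divided. Of 7, 4 fell, 1 rose and 2 did not pass the test. Among all tested genes 42.0% were called lower and 23.3% higher, and 7 genes are too few to set apart from these shares. Rad54l, a motor protein that remodels DNA during strand invasion, read 12.0, 13.5 and 13.2 FPKM in WT and 6.28, 4.15 and 6.30 FPKM in NULL (limma log2 difference -1.10, SE 0.138, adjusted p = 0.000289). The groups were apart, and NULL B was again the lowest. Its relative Rad54b read 11.2, 11.6 and 10.5 FPKM in WT and 5.56, 4.56 and 5.55 FPKM in NULL (limma log2 difference -0.96, adjusted p = 6.61e-05). About 39.1% of the exonic bases of Rad54b are shared with Fsbp on the same strand, so their reads may not be separable.

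Xrcc2, a recombinase paralog, read 7.81, 7.47 and 7.95 FPKM in WT and 4.57, 3.07 and 4.33 FPKM in NULL (limma log2 difference -0.82, adjusted p = 0.000593). Rad51c, the paralog shared by both paralog complexes, was weakly expressed and fell from 2.57 ± 0.421 to 1.54 ± 0.223 FPKM (SD, n = 3; limma adjusted p = 0.00513), a call lost with total and trimmed total scaling (adjusted p = 0.178 and 0.0882).

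Rad52, an annealing protein that acts beside the BRCA2 route, was the gene called higher. It read 7.56, 7.14 and 7.50 FPKM in WT and 9.43, 9.46 and 9.50 FPKM in NULL. The 3 NULL libraries were nearly level and all above WT, a limma log2 difference of 0.32 (SE 0.0583, adjusted p = 0.00198). The difference was positive under all 4 rescalings, between 0.39 and 0.66, and was not called with total scaling (limma adjusted p = 0.0534). Rad51d, another paralog, read 1.90, 2.04 and 2.18 FPKM in WT and 2.49, 2.27 and 2.24 FPKM in NULL. Those groups did not overlap, but the interval of the log2 difference ran from -0.041 to 0.31 (limma adjusted p = 0.150), and it was called higher under 2 of the 4 rescalings. Xrcc3, which pairs with RAD51C, overlapped between groups at 4.22, 5.05 and 4.08 FPKM in WT and 4.34, 3.66 and 3.82 FPKM in NULL (interval -0.36 to 0.077, limma adjusted p = 0.220).

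In the Fanconi core complex 4 of 7 genes fell and 3 did not pass the test. With 42.0% of all tested genes called lower, this count among 7 genes cannot be set apart from the background. Fancb, an X-linked subunit, read 8.62, 7.30 and 7.44 FPKM in WT and 3.28, 2.80 and 3.43 FPKM in NULL. NULL held 40.7% of the WT mean (limma log2 difference -1.08, SE 0.0906, adjusted p = 5.48e-05). Fanca, a scaffold subunit, read 6.90, 6.91 and 8.01 FPKM in WT and 3.93, 2.66 and 3.32 FPKM in NULL (limma log2 difference -0.95, adjusted p = 0.000264). Fancl, the ubiquitin ligase of the complex, read 10.1, 9.13 and 9.81 FPKM in WT and 5.63, 4.33 and 5.25 FPKM in NULL (limma log2 difference -0.82, adjusted p = 0.000184). Each of these 3 genes was separated between the groups and was called lower under all 4 rescalings. Fancl shares 17.0% of its exonic bases with Vrk2 on the opposite strand.

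Fancm, the translocase that anchors the complex to DNA, fell from 8.11 ± 0.370 to 4.78 ± 0.669 FPKM (SD, n = 3; limma adjusted p = 0.000538), without a call under total scaling (adjusted p = 0.145). The subunits Fancc, Fancg and Fance differed less. Fancc read 4.32, 4.50 and 3.81 FPKM in WT and 3.98, 3.62 and 3.26 FPKM in NULL (interval -0.38 to 0.032, limma adjusted p = 0.118). Fancg read 5.24, 5.06 and 5.54 FPKM in WT and 5.26, 4.39 and 4.44 FPKM in NULL (interval -0.33 to 0.045, limma adjusted p = 0.154), and without NULL A it was called lower (adjusted p = 0.0443). Both overlapped between the groups and changed sign with total and trimmed total scaling.

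Fance, which links the core complex to FANCD2, read 3.00, 2.89 and 4.37 FPKM in WT and 2.76, 2.33 and 2.32 FPKM in NULL. WT C stood above WT A and B, and the values just missed the threshold (limma log2 difference -0.34, adjusted p = 0.0554). Without WT C the log2 difference was -0.19 (adjusted p = 0.0897), and without WT B it was -0.42 and called (adjusted p = 0.0401).

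The substrates of the complex both fell. Fancd2 read 15.5, 14.6 and 15.3 FPKM in WT and 7.39, 5.19 and 7.24 FPKM in NULL (limma log2 difference -1.10, SE 0.119, adjusted p = 0.000143). Fanci read 11.5, 11.9 and 11.2 FPKM in WT and 6.43, 4.76 and 6.42 FPKM in NULL (limma log2 difference -0.88, SE 0.107, adjusted p = 0.000249). In both, NULL A and C were nearly level and NULL B was lower, and both kept their call under all 4 rescalings. Fanci overlaps Polg on the opposite strand over 13.4% of its exonic bases.

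Of 3 mismatch repair genes 2 fell, too few to set apart from the 42.0% of all tested genes called lower. The median of the 3 genes, -0.34, was the smallest of the role groups on the deposited scale (0.030 with quantile). Msh6, the subunit for single mispairs and the most abundant of the 35 genes, read 50.2, 51.3 and 49.8 FPKM in WT and 39.2, 38.3 and 41.2 FPKM in NULL. The groups were apart on the deposited scale (limma log2 difference -0.34, SE 0.0598, adjusted p = 0.00152), but the difference was 0.030 with quantile and 0.031 with trimmed total scaling. Pms2, the endonuclease subunit, read 13.7, 12.4 and 14.1 FPKM in WT and 10.4, 9.22 and 10.0 FPKM in NULL (limma log2 difference -0.41, adjusted p = 0.00195). It was not called with total or trimmed total scaling (adjusted p = 0.686 and 0.535). Msh3, the subunit for larger loops, read 14.0, 14.8 and 13.9 FPKM in WT and 14.5, 15.4 and 16.0 FPKM in NULL, with overlap (interval -0.059 to 0.24, limma adjusted p = 0.245). It was called higher under 3 of the 4 rescalings (median-of-ratios, quantile and trimmed total), with differences of 0.24, 0.27 and 0.45. Under these 31.7%, 28.5% and 45.1% of all tested genes were called higher.

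Ratios of partner genes within a library are unchanged when a library is multiplied by 1 factor, but quantile normalization can change them, and they are given here on the deposited scale. The pairs described here were picked after the values were seen, so they are given without a test. Atm over Atr was 1.07, 1.08 and 0.884 in WT and 1.61, 1.79 and 1.60 in NULL. Trp53bp1 over Brca1, factors that push break repair in opposite directions, was 0.601, 0.589 and 0.552 in WT and 0.857, 1.20 and 0.912 in NULL. Both ratios were higher in every NULL library.

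Rad52 over Rad54l went from 0.575 ± 0.0496 to 1.76 ± 0.446 and Msh3 over Msh6 from 0.283 ± 0.00553 to 0.386 ± 0.0163 (SD, n = 3), without overlap. Nbn over Rad50 went the other way, from 0.911 ± 0.0286 to 0.712 ± 0.0979, and Fancd2 over Fanci from 1.32 ± 0.0780 to 1.12 ± 0.0299, again without overlap. By contrast Brca1 over Bard1 was 2.94 ± 0.199 and 2.88 ± 0.241, and Mre11a over Rad50 was 0.854 ± 0.0303 and 0.817 ± 0.0492, and these overlapped between the groups.

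**Figure D4:**
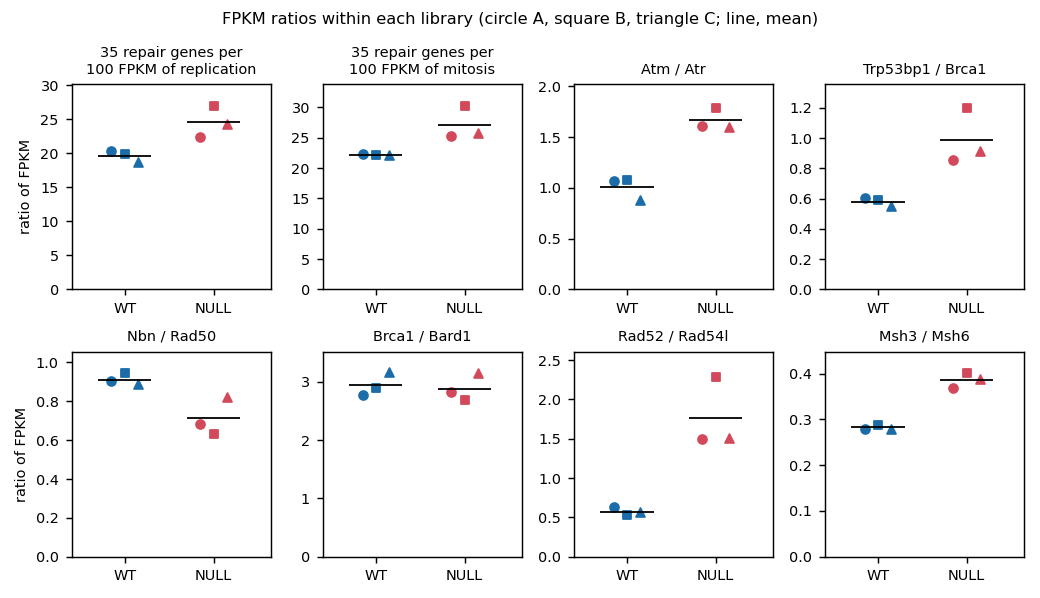
FPKM ratios within each library, WT left and NULL right (circle A, square B, triangle C, line at the mean), for the summed 35 repair genes against the replication and mitosis lists and for 6 gene pairs, with axes from 0. Only the Brca1 over Bard1 panel shows overlapping groups; in the others every NULL point lies on the same side of every WT point.

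The summed level of the 35 genes was 453, 449 and 442 FPKM in WT and 281, 249 and 288 FPKM in NULL. On this scale NULL held 60.9% of the WT mean, against 49.1% for the summed replication genes, 50.4% for mitosis, 74.9% for excision repair, 65.7% for other genes of the same pathways and 137% for end joining. The end joining sum went from 125 to 170 FPKM, and within it Xrcc6 alone went from 51.8 to 101 FPKM. Of the 9 end joining genes tested 3 were called lower and 3 higher (42.0% and 23.3% of all tested genes). Per 100 FPKM of replication genes, the repair genes amounted to 20.3, 19.9 and 18.8 FPKM in WT and 22.4, 27.0 and 24.4 FPKM in NULL. Per 100 FPKM of mitosis genes they amounted to 22.3, 22.1 and 22.2 FPKM in WT and 25.2, 30.3 and 25.7 FPKM in NULL. Both ratios were higher in every NULL library, where the summed repair genes stood at a larger share of their WT level than the summed replication or mitosis genes did. Sums weigh abundant genes most, and Msh6 alone went from 50.4 to 39.6 FPKM, 78.5% of its WT mean. By role the median log2 difference ran from -0.342 (mismatch repair) to -0.988 (Fancd2 and Fanci). The summed ratios therefore do not describe each role.

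The lists are set side by side without a test between them, first on the deposited scale. On that scale 42.0% of all tested genes were called lower. Replication genes fell in 37 of 38 cases (median log2 difference -0.98) and mitosis genes in 30 of 30 (-0.96). With total scaling 22 of 38 and 18 of 30 were called lower, and with trimmed total scaling 37 (and 1 higher) and 27. With quantile the median of the mitosis genes, -0.59, was smaller in size than that of the repair genes, -0.66, so the order of these lists depended on the scaling.

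Other genes of the same pathways fell in 42 of 56 tested cases and rose in 2 on the deposited scale (median -0.45). With total scaling 11 were called lower and 1 higher, and with trimmed total scaling 23 lower and 9 higher (median -0.092). Among them Tipin, which stabilises stalled forks, fell from 106 ± 1.59 to 42.9 ± 6.62 FPKM, Gen1, a resolvase of recombination junctions, from 13.0 ± 0.591 to 5.76 ± 0.931 FPKM, and Polq, the polymerase of microhomology-mediated joining, from 9.57 ± 0.313 to 4.16 ± 0.804 FPKM (SD, n = 3; limma adjusted p = 5.48e-05, 0.000103 and 0.000161). The helicase gene Wrn and the nuclease subunit gene Eme2 rose (limma adjusted p = 0.0226 and 0.0115), Wrn without a call under total scaling. Base and nucleotide excision repair genes fell in 17 of 27 cases and rose in 3 on the deposited scale (median -0.38). With total scaling 3 were called lower and 3 higher, and with trimmed total scaling 9 lower and 7 higher (median -0.105). Among all tested genes 42.0% were called lower and 23.3% higher on the deposited scale. These shares were 10.1% and 20.4% with total scaling, and 20.6% and 45.1% with trimmed total scaling. Genes of non-homologous end joining, the alternative to recombination at breaks, fell in 3 of 9 cases and rose in 3 on the deposited scale (median 0.17). With total scaling 3 were called higher and 6 did not pass the test, and with trimmed total scaling 1 lower and 6 higher (median 0.509). Lig4, the ligase of that route, rose from 6.71 ± 0.840 to 16.3 ± 2.0 FPKM and Xrcc6, which encodes Ku70, from 51.8 ± 5.03 to 101 ± 3.12 FPKM, while Xrcc5, which encodes its partner Ku80, fell from 29.4 ± 1.85 to 16.0 ± 1.33 FPKM (SD, n = 3; limma adjusted p = 9.26e-05, 6.02e-05 and 8.98e-05), the last without a call under total scaling.

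**Figure D5:**
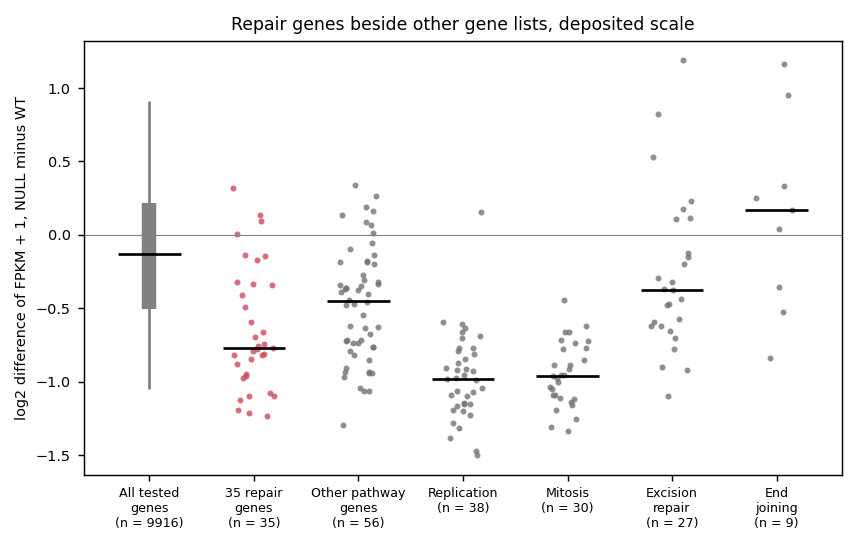
Log2 difference of FPKM + 1, NULL minus WT, on the deposited scale for the 35 repair genes (red) beside other gene lists (grey points), with the median as a black line; for all 9916 tested genes the thick bar spans the middle 50% and the thin line the central 90%. The repair genes' median of -0.77 lies between those of other pathway genes, -0.45, and of replication genes, -0.98, on this scale.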

How the data were processed

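RNA sequencing of 6 bone marrow libraries was used. The values are FPKM, computed by the authors and deposited as such. The submitters' processing notes list Bowtie, Cufflinks, mm10 and GRCm38, without roles. No source used here gives versions, annotation or any scaling across libraries. The series table and the library tables differed in 0 values. Of 23848 rows, 489 repeats of 256 symbols were left out, keeping the row with the highest mean. Groups came from sample titles.

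Genes averaging 1 FPKM or more were fitted together in limma 3.58.1 (R 4.3.3) on log2(FPKM + 1), with a variance trend. Its p-values were two-sided and adjusted by Benjamini-Hochberg, and the script was tested on simulated data. Depth came from the commonest step of low values times the longest GENCODE vM21 transcript less 150 bp, an approximation. The genes and lists were chosen with earlier results of these data known. Values in every library are given, by role, for up to 3 called genes of largest difference and constant direction, and for genes called higher or not called. They are also given for Atm and Msh6, which were called lower but changed sign in at least 1 rescaling. Some single genes' results are left out. Alternatives were pseudocounts, filters, 4 rescalings (that without small RNA genes was added after seeing the data), moderation settings, a replicate block, a threshold of 0.01 and leaving out each library.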

Additional observations from a re-analysis of the deposited data

How the results depend on the processing

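The number of repair genes called lower was 27 or 28 in every alternative but the filter of 5 FPKM (25 of 28 genes left), the threshold of 0.01 (26) and the 4 rescalings, the largest drop being to 14 with total scaling. There limma called 0 higher, and 1 was higher and 19 lower at an unadjusted p under 0.05. The number called higher was 3 after median-of-ratios rescaling (31.7% of all tested genes), 2 after quantile normalization (28.5%) and 4 with trimmed total scaling (45.1%). It was 1 in every alternative other than these and total scaling. The median log2 difference of -0.77 became -0.546 with a pseudocount of 5, -0.631 (median-of-ratios), -0.656 (quantile), -0.524 (total) and -0.432 (trimmed total), and ranged from -0.819 to -0.682 when single libraries were left out. With total and then trimmed total scaling Xrcc3 turned to 0.0821 and 0.167, Fancc to 0.0436 and 0.129, and Fancg to 0.0893 and 0.174. Msh6 turned to 0.0296 (quantile) and 0.0314 (trimmed total), and Atm to 0.0353 (trimmed total). Trp53bp1 ranged from -0.0593 to 0.0486 when single libraries were left out. The cause of these changes was not tested.

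The shared letters A, B and C are not said to pair libraries. Deviations of same-lettered libraries correlated at 0.073, 0.36 and 0.13, each library correlating best with its own letter, a hint from the data and not the design. With the letter as a replicate block 27 repair genes were called lower, 1 higher and the median was -0.773. Depth is approximate and supports no counting interval, and with 3 libraries a group Rad51c, Rad51d and Fance rest on the fewest fragments.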
